A study of Danio rerio with 11 samples.

Results

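rn7sl1 (ENSDARG00000087732) and rn7sl1-2 (ENSDARG00000110849) are zebrafish genes for 7SL RNA, and they are 2 of the 32520 genes counted in the series. They were selected on their read counts in the 11 RNA immunoprecipitation (RIP) and input libraries, as transcripts of RNA polymerase III that carry neither a poly(A) tail nor the cap of an mRNA. The contrast of RIP with input is therefore a description for these genes and has no test. The comparisons between the eIF4E1b and eIF4E1c lines were not part of the rule that chose them and are tested. The genes were, however, chosen with earlier results of these data known.

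7SL RNA is the scaffold of the signal recognition particle (SRP). The particle binds signal peptides as they leave the ribosome, slows elongation and brings the ribosome to the SRP receptor and the Sec61 channel of the endoplasmic reticulum. RNA polymerase III makes 7SL RNA, vertebrate genomes hold many copies and copy-like sequences of it, and eggs carry it into the embryo. eIF4E proteins bind the cap of mRNAs made by RNA polymerase II, which 7SL RNA lacks.

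The series asked which mRNAs come down with eIF4E1b, the germline and early embryonic member of the eIF4E family, in comparison with eIF4E1c. Tagged protein was pulled from lysates of 8-cell embryos with anti-GFP beads, and RNA of the precipitate (RIP) and of the whole lysate (input) was sequenced. The eIF4E1b line gave 3 RIP and 3 input libraries, and the eIF4E1c line 2 RIP and 3 input libraries. The kits differed, since RIP RNA went into a SMARTer Ultra Low preparation and input RNA into a SMARTer Stranded preparation with Ribo-Zero depletion of ribosomal RNA. The genotype of the eIF4E1b libraries was tg(actb2:3xflag-sfGFP-eIF4E1b) and that of the eIF4E1c libraries tg(actb2:3xflag-sfGFP-eIF4E1c). In both lines the ubiquitous actb2 promoter drives a protein tagged with Flag and GFP from an inserted transgene, and neither label names a mutation of the endogenous genes. There is no RIP library from embryos without a tagged protein among these samples.

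Total counts ranged from 6943631 to 13993294 per library, so that 3 counts correspond to between 0.214 and 0.432 CPM (counts scaled to a common library total). The markers went with the labelled stage, with 2563 to 5961 CPM of 11 maternal genes summed against 0.478 to 5.33 CPM of 9 genes of later tissues. EIF4E1B had 59.4 to 80.6 CPM in eIF4E1b inputs and 13.5 to 20.1 CPM in eIF4E1c inputs, while eif4e1c had 52.2 to 61.2 CPM in eIF4E1b inputs and 79.3 to 92.8 CPM in eIF4E1c inputs. In RIP, EIF4E1B had 236 ± 9.73 CPM for eIF4E1b (SD, n = 3) and 87.1 ± 28.5 CPM for eIF4E1c (SD, n = 2), while eif4e1c had 305 ± 116 CPM for eIF4E1b and 272 ± 146 CPM for eIF4E1c and did not separate the lines. Counts per gene do not tell transgene and endogenous transcripts apart. Replicates are labelled as biological, and no pair agreed within sampling noise. eIF4E1c RIP library 1 stood apart. It had the lowest total and counts for 15114 genes, against 17520 to 19591 in the other 10 libraries, and it held 11955 CPM of mitochondrial mRNA, against 145 to 2507 CPM in the other 4 RIP libraries. Some results that include it are also given without it, and the rest are given with it only. Among the latter are the fits of eIF4E1c RIP against input and most RIP levels of other RNAs as a percent of input.

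Both 7SL genes were among the more heavily counted genes of every input library and were close to absent from every RIP library. rn7sl1-2 had 0, 4 and 2 reads in the eIF4E1b RIP libraries and 8 and 4 reads in the eIF4E1c RIP libraries. The same gene had 24239, 38239 and 20565 reads in the eIF4E1b inputs and 23155, 39586 and 36977 reads in the eIF4E1c inputs. No RIP library came near any input library, and in 2 of the 6 inputs rn7sl1-2 had more reads than any other gene. Its rank by read count was 5, 1 and 14 in the eIF4E1b inputs and 2, 2 and 1 in the eIF4E1c inputs.

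rn7sl1 showed the same contrast at a lower read count. It had 1, 3 and 3 reads in the eIF4E1b RIP libraries and 9 and 6 reads in the eIF4E1c RIP libraries. In the inputs it had 4772, 8786 and 8934 reads in the eIF4E1b line and 13296, 7970 and 10281 reads in the eIF4E1c line. Its rank was between 18 and 356 in the inputs and between 11736 and 18083 in the RIP libraries. Gene lengths were not used here, so the read counts of the genes are not compared as amounts of RNA.

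**Figure D1:**
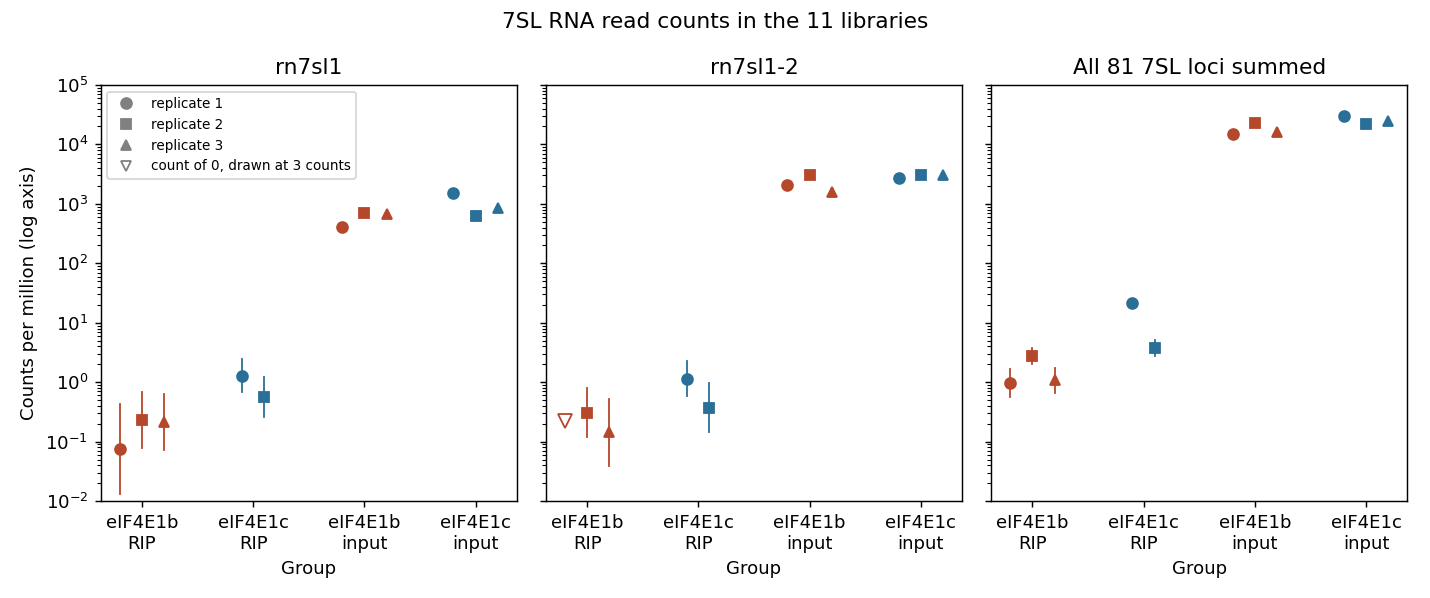
CPM (log axis) of rn7sl1, rn7sl1-2 and all 81 7SL loci summed, in each of the 11 libraries by group; red marks eIF4E1b and blue eIF4E1c, symbols the replicate number, and vertical bars Wilson 95% intervals for counting error. An open triangle at the level of 3 counts stands for a count of 0. The inputs lie between 404 and 3115 CPM for the pair of genes, and the RIP libraries lie at or below 1.30 CPM.

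In CPM, rn7sl1-2 averaged 0.150 ± 0.154 (SD, n = 3) in eIF4E1b RIP and 2228 ± 747 (SD, n = 3) in eIF4E1b input. In the eIF4E1c line it averaged 0.762 ± 0.551 (SD, n = 2) in RIP and 2956 ± 232 (SD, n = 3) in input. rn7sl1 averaged 0.173 ± 0.0856 CPM in eIF4E1b RIP against 597 ± 167 CPM in eIF4E1b input, and 0.928 ± 0.521 CPM in eIF4E1c RIP against 1008 ± 478 CPM in eIF4E1c input. Every eIF4E1b RIP value of both genes lies near the level of 3 reads, where counting error alone is as large as the value.

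Set against input, the RIP level of rn7sl1-2 was 0.00668% in the eIF4E1b line (exact 95% interval for counting error 0.00245 to 0.0145%) and 0.0227% in the eIF4E1c line (0.0117 to 0.0397%). For rn7sl1 it was 0.0288% (0.0116 to 0.0593%) in the eIF4E1b line and 0.0898% (0.0503 to 0.148%) in the eIF4E1c line. Without eIF4E1c RIP library 1 the eIF4E1c values were 0.0125% (0.00340 to 0.0319%) for rn7sl1-2 and 0.0592% (0.0217 to 0.129%) for rn7sl1. Input thus exceeded RIP by 14980-fold and 3478-fold for rn7sl1-2 and rn7sl1 in the eIF4E1b line, and by 4400-fold and 1114-fold in the eIF4E1c line, each ratio resting on 6 to 15 RIP reads. These intervals cover counting error only, because reads that carry no molecular identifier may be copies of one molecule. The kind of library and the library kit change together in this contrast, so precipitation and kit cannot be told apart. In whole-embryo lysates, fewer cells that hold an RNA and less of it per cell cannot be told apart either.

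In the fit over all genes, the log2 fold change of eIF4E1b RIP against input was -13.45 ± 0.65 (SE) for rn7sl1-2 and -11.34 ± 0.62 for rn7sl1. For eIF4E1c the values were -11.79 ± 0.55 for rn7sl1-2 and -9.86 ± 0.63 for rn7sl1. The choice of the genes used this contrast, so for them these values and the ranks that follow are a description only. Over all genes, 46.2% of 17123 tested passed the threshold of DESeq2 (adjusted p under 0.005) for eIF4E1b and 34% of 15131 for eIF4E1c. Counted from the lowest fold change, rn7sl1-2 was the 14th and rn7sl1 the 26th of the genes tested for eIF4E1b, where the median was 0.05. For eIF4E1c they were the 19th and the 41st, with a median of 0.00.

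The files hold 79 further genes with a 7SL RNA symbol (rn7sl or Metazoa_SRP names), and summed they share the depletion. Copies that are alike in sequence can take each other's reads, and how alike these copies are was not examined. How reads with several matches were counted is not given in the sources used here. The count of any one copy is therefore uncertain, and the copies are not taken as independent of the pair. Summed, these 79 loci had 12, 29 and 10 reads in the eIF4E1b RIP libraries and 132 and 31 reads in the eIF4E1c RIP libraries. Their summed level was 15170 ± 3220 CPM in eIF4E1b inputs and 21427 ± 3798 CPM in eIF4E1c inputs (SD, n = 3 each). The RIP level was 0.00830% of input (0.00618 to 0.0109%) in the eIF4E1b line and 0.0440% (0.0375 to 0.0513%) in the eIF4E1c line, or 0.0138% (0.00937 to 0.0196%) without eIF4E1c RIP library 1.

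Of the 79 loci, 39 had no read in any RIP library and 67 had at most 3 reads in each. DESeq2 gave an adjusted p for 65 of them in the eIF4E1b line, of which 63 were lower in RIP than in input and 0 higher, with a median log2 fold change of -10.83. It did so for 68 in the eIF4E1c line, of which 63 were lower and 0 higher, with a median of -10.24. Least depleted among the loci not called there were ENSDARG00000111064 (-2.54, DESeq2, adjusted p = 0.0676) and ENSDARG00000087015 (-4.38, DESeq2, adjusted p = 0.00509). ENSDARG00000087015 had 38 and 3 reads in eIF4E1c RIP, against 944, 626 and 1143 reads in eIF4E1c inputs. Over all tested genes 23.2% were lower in eIF4E1b RIP and 16.8% in eIF4E1c RIP. The 7SL loci, with the pair, made up 62 of the 100 lowest fold changes for eIF4E1b and 59 of the 100 lowest for eIF4E1c. The pair was chosen on this contrast and the other loci may share its reads. The counts of loci given here are therefore a description and do not bear out the depletion of the pair.

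Most of the 2263 other genes with the symbol of an RNA polymerase III transcript had too few reads to test. In the eIF4E1b line DESeq2 tested 10, of which 1 was higher and 3 lower in RIP than in input, with a median log2 fold change of -0.21, and in the eIF4E1c line 5, of which 0 were higher and 3 lower, with a median of -3.82. Some of the most counted follow. rmrp, the RNA of the ribosomal RNA processing enzyme RNase MRP, had 0, 0 and 0 reads in eIF4E1b RIP and 2 and 0 in eIF4E1c RIP, against 386, 586 and 512 in eIF4E1b inputs and 999, 505 and 636 in eIF4E1c inputs. Its RIP level was at most 0.230% of input for eIF4E1b, the upper bound that 0 reads allow, and 0.177% (0.0214 to 0.638%) for eIF4E1c. rn7sk, the 7SK RNA that holds the elongation factor P-TEFb inactive, had 2, 4 and 1 reads in eIF4E1b RIP and 2 and 0 in eIF4E1c RIP, against 180, 202 and 173 in eIF4E1b inputs and 67, 98 and 75 in eIF4E1c inputs. Its RIP level was 1.17% of input (0.466 to 2.42%) for eIF4E1b and 1.57% (0.190 to 5.75%) for eIF4E1c. Both lie above those of the 7SL genes, with intervals that do not overlap theirs. In the eIF4E1c line both rmrp reads and both rn7sk reads came from RIP library 1, so the eIF4E1c values of rmrp and rn7sk rest on this library alone.

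rpph1, the RNA of RNase P, was far less depleted than the 7SL genes. It had 17, 146 and 167 reads in eIF4E1b RIP and 387, 1030 and 966 reads in eIF4E1b inputs. In the eIF4E1c line it had 89 and 219 reads in RIP and 814, 391 and 467 reads in inputs. Its RIP level was 12.8% of input for eIF4E1b and 34.8% for eIF4E1c, and its log2 fold changes, -2.48 for eIF4E1b and -1.51 for eIF4E1c, did not pass the threshold (DESeq2, adjusted p = 0.0180 for eIF4E1b and 0.0160 for eIF4E1c). The small nucleolar and Cajal body RNAs, summed, stood at 2.32% of input for eIF4E1b and 3.14% for eIF4E1c.

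Among mRNAs, the replication-dependent histone genes are of interest beside 7SL because their mRNAs are capped but mostly lack a poly(A) tail. Their summed RIP level was 33.5% of input for eIF4E1b and 11.2% for eIF4E1c, between the 7SL loci and the mRNAs of the SRP pathway. Mitochondrial mRNAs, summed, stood at 60.8% for eIF4E1b and 1652% for eIF4E1c, or 666% without eIF4E1c RIP library 1. Small nuclear RNAs of RNA polymerase II, with few input reads, stood at 345% for eIF4E1b and 66.1% for eIF4E1c. The part of cap and tail in these levels was not tested. The mRNAs for the 6 SRP proteins stood at 122% in both lines. The 6 genes listed for the Sec61 channel, which include SEC62 and SEC63, stood at 124% for eIF4E1b and 122% for eIF4E1c. SEC62 alone had 890, 871 and 1365 of the list's 1443, 1516 and 2069 CPM in the eIF4E1b RIP libraries. In eIF4E1b inputs it had 405, 416 and 349 of 1360, 1387 and 1317 CPM, so the eIF4E1b percentage rests largely on SEC62. In eIF4E1c RIP it had 639 and 448 of 1332 and 1863 CPM. The SRP receptor stood at 54.0% for eIF4E1b and 127% for eIF4E1c. In eIF4E1b RIP 1 of the 6 SRP protein genes, 1 of the 6 Sec61 genes and 1 of the 2 receptor genes were called lower than in input, and in eIF4E1c RIP 0, 1 and 0 of them. In the same order, 2, 2 and 0 were called higher in eIF4E1b RIP and 4, 1 and 1 in eIF4E1c RIP. Over all tested genes 23.2% were lower and 23% higher in eIF4E1b RIP, and 16.8% lower and 17.2% higher in eIF4E1c RIP.

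**Figure D2:**
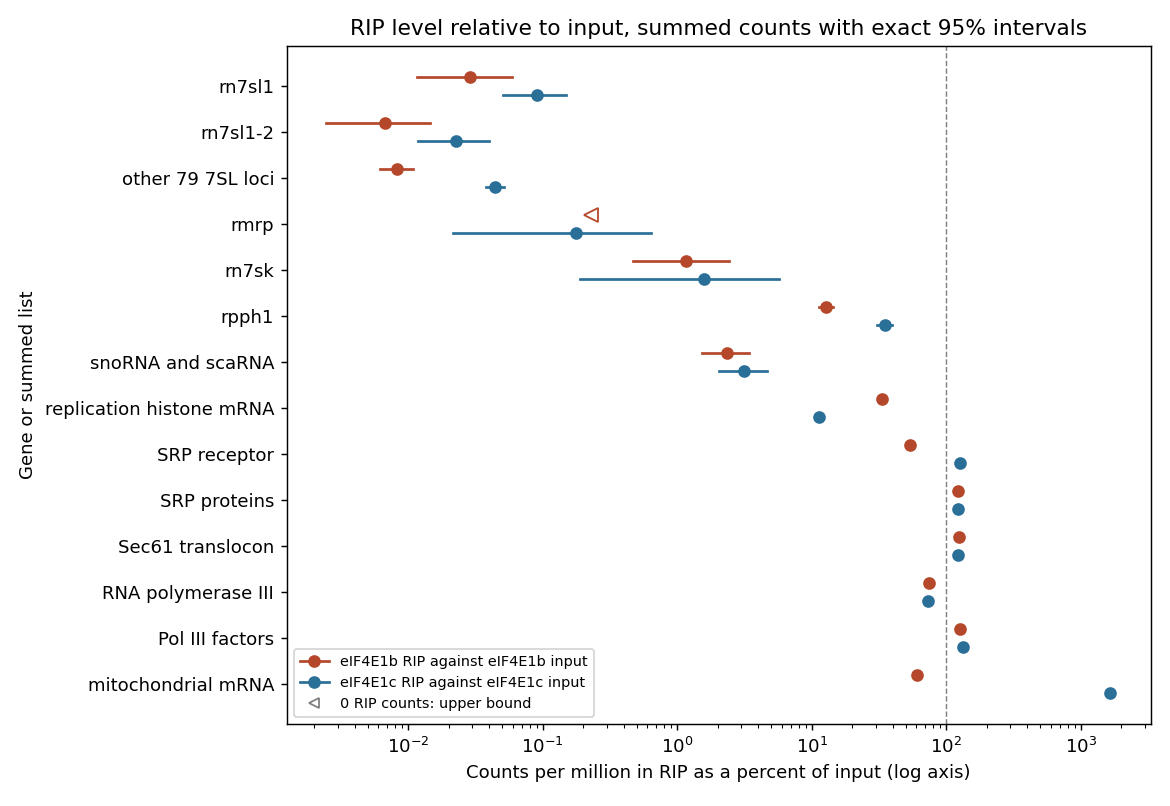
CPM in RIP as a percent of input (log axis), from counts summed over the libraries of a line, for the 7SL genes and for other genes or summed lists, with eIF4E1b in red and eIF4E1c in blue; bars are exact 95% intervals for counting error and open triangles upper bounds for 0 RIP reads. The points of rn7sl1, rn7sl1-2 and the other 79 7SL loci summed lie below 0.1%. rn7sk lies between 1 and 2%, and the SRP protein and Sec61 lists near the dashed line at 100%. The Sec61 list includes SEC62 and SEC63, and SEC62 holds much of its eIF4E1b RIP level.

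Between the lines, both 7SL genes had a lower CPM in each eIF4E1b RIP library than in either eIF4E1c RIP library, but the difference could not be called from so few reads. rn7sl1 had 0.0747, 0.230 and 0.214 CPM in eIF4E1b RIP, against 1.30 and 0.559 CPM in eIF4E1c RIP. rn7sl1-2 had 0, 0.307 and 0.143 CPM in eIF4E1b RIP, against 1.15 and 0.373 CPM in eIF4E1c RIP. Libraries that do not overlap were common in this comparison, since 33.4% of 22044 genes with a RIP read showed this in either direction and 16.1% with eIF4E1b lower. The fitted log2 differences were -2.43 ± 1.70 (SE) for rn7sl1 and -2.39 ± 2.00 for rn7sl1-2, and DESeq2 gave no adjusted p for either gene because their mean counts were too low, while it called 7.95% of 14127 genes, 4.51% as lower in eIF4E1b RIP.

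Summing the reads of copies gave values that could be tested, and the result changed with the libraries used. With both genes summed the log2 difference of eIF4E1b RIP against eIF4E1c RIP was -2.41 ± 1.40 (DESeq2, adjusted p = 0.225). All 81 loci summed had 0.971, 2.76 and 1.07 CPM in eIF4E1b RIP, against 21.5 and 3.82 CPM in eIF4E1c RIP, with a log2 difference of -3.11 ± 0.87 (DESeq2, adjusted p = 0.00457). Of the 149 reads of the 81 loci in eIF4E1c RIP library 1, 38 came from ENSDARG00000087015. The sum of all 81 loci was added after the data were seen. The call held without eIF4E1c RIP library 2 and was lost with any other library left out, at a DESeq2 adjusted p of 0.0348, 0.00525 and 0.0427 without eIF4E1b RIP library 1, 2 and 3 and of 0.619 without eIF4E1c RIP library 1, where the difference was -0.91. A replicate block gave a DESeq2 adjusted p of 0.151, and edgeR gave an adjusted p of 0.0534 with all 5 libraries. In eIF4E1c RIP library 1 the mitochondrial mRNAs and the snoRNAs were also at the highest level of the 5 RIP libraries, with 2.02 CPM of snoRNAs against 0.448 to 1.12 CPM in the others. These snoRNA levels rest on 14 reads in that library, 12 in eIF4E1c RIP library 2 and 6 to 13 in the eIF4E1b RIP libraries. The part of both kinds of RNA in the result was not tested.

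In the inputs the 7SL genes did not pass the threshold between the lines. rn7sl1-2 had 2054, 3046 and 1583 CPM in the eIF4E1b inputs, against 2690, 3115 and 3064 CPM in the eIF4E1c inputs. eIF4E1b inputs 1 and 3 lay below all eIF4E1c inputs, and eIF4E1b input 2 lay among them. The log2 difference was -0.46 ± 0.20 (SE), with an adjusted p of 0.160 by DESeq2. Without eIF4E1b input 2 it was -0.76 ± 0.16 and passed (DESeq2, adjusted p = 0.000271). With any other input left out it did not pass, and 2.33% of 15281 tested genes passed with all inputs, 1.44% as lower in eIF4E1b. Inputs of the lines that do not overlap were found for 20.1% of 23218 genes, 8.13% with eIF4E1b lower, and for neither 7SL gene.

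rn7sl1 had 404, 699.9 and 688 CPM in the eIF4E1b inputs, against 1544, 627 and 852 CPM in the eIF4E1c inputs. The groups overlapped, because eIF4E1c input 2 lay below eIF4E1b inputs 2 and 3. The log2 difference was -0.80 ± 0.46 (DESeq2, adjusted p = 0.344), and without eIF4E1c input 1, which holds the highest value, it was -0.36. eIF4E1c input 1 also had the lowest total of the inputs and 818 snoRNA reads, against 285 to 415 in the other 5 inputs, and the part of these in the result was not tested.

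The spread of the 7SL genes among inputs of one line was wide. The coefficient of variation of rn7sl1 was 28.0% in eIF4E1b inputs and 47.4% in eIF4E1c inputs. That of rn7sl1-2 was 33.5% in eIF4E1b inputs and 7.85% in eIF4E1c inputs. Over the 2858 genes with at least 100 CPM in input the median was 7.46% in eIF4E1b inputs and 9.60% in eIF4E1c inputs, so of the 4 values for the 7SL genes only that of rn7sl1-2 in eIF4E1c inputs lay below the median.

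Summed, the pair of genes took 0.283 ± 0.0803% of the reads of eIF4E1b inputs and 0.396 ± 0.0250% of those of eIF4E1c inputs (SD, n = 3 each). The log2 difference of the pair was -0.54 ± 0.18 (DESeq2, adjusted p = 0.0459) and that of all 81 loci -0.55 ± 0.17 (DESeq2, adjusted p = 0.0325), both short of the threshold of 0.005. Of the other 79 loci, 4 were lower and 0 higher in eIF4E1b inputs among 70 tested, with a median log2 difference of -0.74 against 0.01 over all tested genes. These 4 were rn7sl1-5 (-0.63 ± 0.16), ENSDARG00000114352 (-0.59 ± 0.15), ENSDARG00000111095 (-0.69 ± 0.16) and ENSDARG00000087015 (-2.98 ± 0.64). Over all tested genes 1.44% were lower and 0.89% higher. Each of the 4 calls was lost in some alternatives, with a highest DESeq2 adjusted p of 0.310, 0.310, 0.478 and 0.229 in that order. With 1 input left out the number of loci called lower ranged from 0 (without eIF4E1c input 3) to 13 (without eIF4E1b input 2). edgeR called 0 of 67 loci. At an unadjusted p under 0.05 it gave 0 of them higher and 27 lower in eIF4E1b inputs. Over all 14539 genes tested with edgeR it gave 1305 higher and 1553 lower at that level. The summed level of the 79 loci differed by -6257 CPM between the lines (exact permutation test, two-sided, p = 0.2, where 3 libraries against 3 allow no p below 0.1).

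Of the 5 other RNAs of RNA polymerase III tested in this comparison, 1 passed, against 2.33% of all tested genes. rn7sk was higher in eIF4E1b inputs, with 14.9 ± 1.42 CPM against 7.24 ± 0.886 CPM in eIF4E1c inputs (SD, n = 3 each; log2 difference 0.99 ± 0.26, DESeq2, adjusted p = 0.00487). That call was lost when any 1 of the 6 inputs was left out. rmrp, with the same sign as the 7SL genes, had a log2 difference of -0.86 ± 0.49 (DESeq2, adjusted p = 0.332), and rpph1 of 0.17 ± 0.63 (DESeq2, adjusted p = 0.929).

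The difference between the lines in the RIP to input ratio, from which any kit effect shared by the lines drops out, was not called for either gene. It was -1.42 ± 0.89 on the log2 scale for rn7sl1 (DESeq2, adjusted p = 0.273) and -1.63 ± 0.87 for rn7sl1-2 (DESeq2, adjusted p = 0.178), where 8.97% of 14194 tested genes passed, 3.73% with a higher and 5.24% with a lower ratio for eIF4E1b. Without eIF4E1c RIP library 1 the values were -0.46 for rn7sl1 and -0.44 for rn7sl1-2. For all 81 loci summed it was -2.48 ± 0.82 (DESeq2, adjusted p = 0.0171), or -0.29 without that library. None of the 62 other loci tested passed with DESeq2, and edgeR called none of 68. At an unadjusted p under 0.05 DESeq2 gave 1 of the 62 higher and 7 lower. Over all 14194 tested genes it gave 2294 higher and 2212 lower at that level.

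The reads were split unevenly between the genes. rn7sl1 held 16.4, 18.7 and 30.3% of the pair's reads in the eIF4E1b inputs and 36.5, 16.8 and 21.8% in the eIF4E1c inputs. The widest Wilson 95% interval of these shares, that of eIF4E1b input 3, is 29.8 to 30.8%, so most inputs differ in the split by far more than counting error. The means were 21.8 ± 7.43% for eIF4E1b inputs and 25.0 ± 10.3% for eIF4E1c inputs (SD, n = 3 each), and the difference of -3.19 percentage points was within the spread (exact permutation test, two-sided, p = 0.6, smallest possible p 0.1).

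In the RIP libraries rn7sl1 held 1 of 1, 3 of 7 and 3 of 5 reads of the pair in the eIF4E1b line and 9 of 17 and 6 of 10 reads in the eIF4E1c line. As shares these are 67.6 ± 29.3% (SD, n = 3) for eIF4E1b RIP and 56.5 ± 4.99% (SD, n = 2) for eIF4E1c RIP, which did not differ beyond the spread (difference 11.1 percentage points, exact permutation test, two-sided, p = 0.9, smallest possible p 0.1). Every RIP share lies above every input share. The Wilson intervals of the RIP shares reach from 15.8 to 100%, and each includes the share of eIF4E1c input 1. Those of eIF4E1c RIP library 1 (31.0 to 73.8%) and library 2 (31.3 to 83.2%) include no other input share.

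Within the family of 81 loci, rn7sl1-2 ranked 1st and rn7sl1 10th by mean input CPM. Together the 10 loci with most reads held 64.0% of the reads of the family in the inputs, all 81 loci had reads in at least 1 input, and 73 had reads in every input. rn7sl1-2 took 13.5, 13.5 and 9.79% of the family's reads in the eIF4E1b inputs and 9.05, 14.4 and 12.4% in the eIF4E1c inputs. rn7sl1 took 2.65, 3.10 and 4.25% in the eIF4E1b inputs and 5.20, 2.89 and 3.44% in the eIF4E1c inputs. The highest share was 1.59-fold the lowest for rn7sl1-2 and 1.96-fold for rn7sl1, and neither share differed between the lines beyond its spread (exact permutation test, two-sided, p = 0.9 for rn7sl1-2 and 0.6 for rn7sl1).

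Some other loci of the family varied far more between inputs than the pair did, and others less. Among the 54 loci with at least 10 CPM in input, the median of the highest over the lowest share was 2.29, and for 9 loci it was 10 or more. ENSDARG00000113506, the locus ranked after rn7sl1-2, spanned 1.13-fold. ENSDARG00000089201 had 4, 39 and 4894 reads in the eIF4E1b inputs and 4681, 508 and 3170 reads in the eIF4E1c inputs. ENSDARG00000112313 followed the same libraries, with 4, 12 and 2916 reads in the eIF4E1b inputs and 3843, 288 and 2585 reads in the eIF4E1c inputs. These 3 loci were named after their values were seen. ENSDARG00000089201 and ENSDARG00000112313 were high in eIF4E1b input 3 and eIF4E1c inputs 1 and 3, which are also the 3 inputs where rn7sl1 took its largest shares of the pair.

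**Figure D3:**
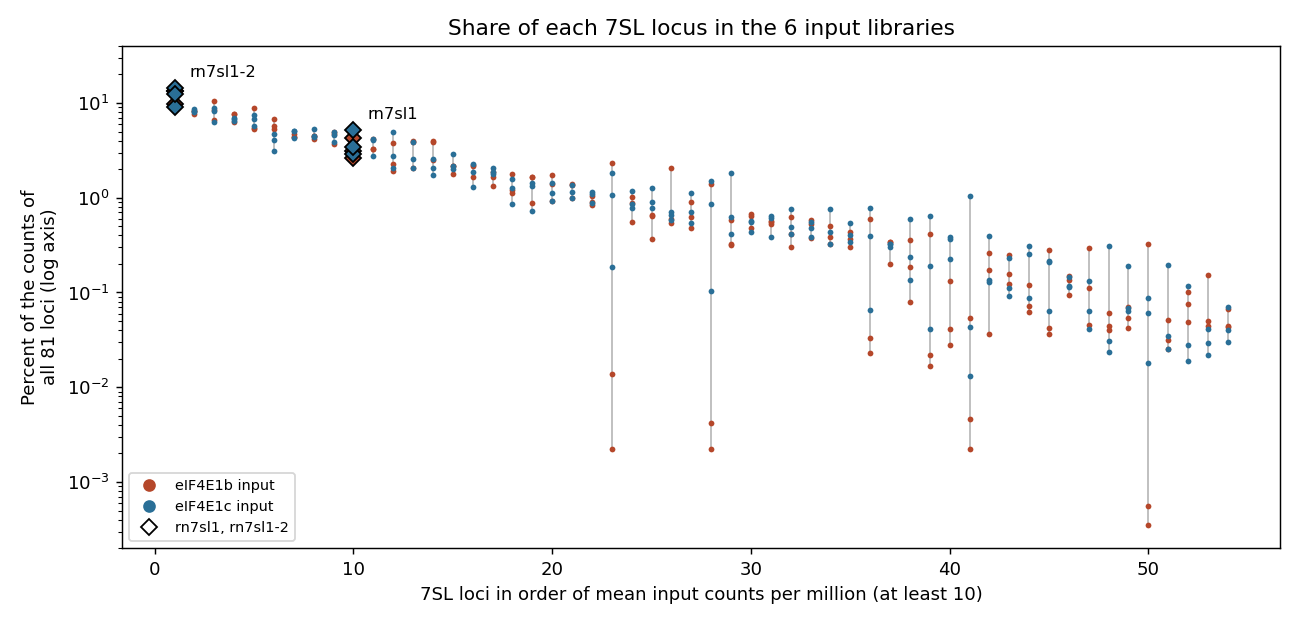
Percent of the reads of all 81 7SL loci held by each locus (log axis), for the 54 loci with at least 10 CPM in input, in order of mean input CPM; each dot is an input library and the grey line joins the lowest and the highest. rn7sl1-2 and rn7sl1 (diamonds) stand 1st and 10th and span less than 2-fold, while 9 loci span 10-fold or more.

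The genes whose pattern over the 11 libraries was most like that of the pair were other 7SL loci. Likeness was the root mean square difference of centred log2(normalized count + 1) values, which is mostly set by the gap between RIP and input. For rn7sl1 the nearest were ENSDARG00000116328 (0.666), ENSDARG00000109767 (0.670) and ENSDARG00000116452 (0.687). For rn7sl1-2 they were ENSDARG00000115036 (0.459), ENSDARG00000116132 (0.632) and ENSDARG00000114352 (0.634). The difference between rn7sl1 and rn7sl1-2 themselves was 1.17. Among genes without a 7SL symbol, a comparison added after the data were seen, rmrp was the nearest to rn7sl1 (1.06) and ENSDARG00000081126 the nearest to rn7sl1-2 (2.09).

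In mean normalized count over all 11 libraries, rn7sl1 (4433) stood between SPTY2D1 (4441) and ERLEC1 (4416), and rn7sl1-2 (14212) between NKAPL (14361) and acin1b (13770). These neighbours differ from the pair in where the reads came from. SPTY2D1 had 394 CPM in eIF4E1b RIP and 453 CPM in eIF4E1b input, where rn7sl1 had 0.173 and 597 CPM.

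The proteins that work with 7SL RNA were counted as mRNAs in the same libraries. Of the genes for the 6 SRP proteins, none passed between the RIPs, where 1 had an unadjusted p under 0.05 with DESeq2 and 1 with edgeR, and 1 passed between the inputs. Over all tested genes 7.95% passed between the RIPs and 2.33% between the inputs. At an unadjusted p under 0.05 between the RIPs, DESeq2 gave 2091 higher and 2316 lower of 14127 genes. edgeR gave 1896 higher and 2149 lower of 14929 genes there. SRP9, which binds the Alu domain of 7SL RNA together with SRP14, had 46.9, 38.5 and 14.0 CPM in eIF4E1b inputs, against 6.16, 7.55 and 6.30 CPM in eIF4E1c inputs. Its log2 difference was 2.25 ± 0.35 (DESeq2, adjusted p = 3.61e-08), it passed with any 1 input left out, and edgeR gave an adjusted p of 0.0264, short of the threshold. SRP72, the scaffold protein of the particle and the most counted of the 6, had 179 ± 30.6 CPM in eIF4E1b inputs and 215 ± 14.3 CPM in eIF4E1c inputs (SD, n = 3 each), with a log2 difference of -0.32 ± 0.16 (DESeq2, adjusted p = 0.267). SRP54, the GTPase that binds the signal peptide, had 123 ± 5.24 CPM in eIF4E1b inputs and 137 ± 11.4 CPM in eIF4E1c inputs (SD, n = 3 each) and did not pass (DESeq2, adjusted p = 0.451).

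Relative to input, SRP19, which joins the S domain of 7SL RNA, was higher in RIP in both lines, by 2.17 for eIF4E1b and 2.10 for eIF4E1c on the log2 scale. SRP14 was higher by 1.34 for eIF4E1b and 1.30 for eIF4E1c. In total 2 of the 6 SRP genes were higher and 1 lower in eIF4E1b RIP than in input, and 4 were higher and 0 lower in eIF4E1c RIP, while 23% of tested genes were higher in eIF4E1b RIP and 17.2% in eIF4E1c RIP. The gene lower in eIF4E1b RIP was SRP68, which binds 7SL RNA together with SRP72, with 55.5 ± 6.89 CPM in RIP and 148 ± 42.1 CPM in input (SD, n = 3 each; log2 fold change -1.01 ± 0.28, DESeq2, adjusted p = 0.000696), and edgeR called none of the 6 lower.

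srprb, the membrane-anchored subunit of the SRP receptor, had 12.9, 13.1 and 13.1 CPM in eIF4E1b RIP, against 69.0 and 86.3 CPM in eIF4E1c RIP. The groups lay far apart, and the log2 difference of -2.49 ± 0.41 passed with DESeq2 (adjusted p = 2.28e-07) and with any 1 RIP library left out, while edgeR gave an adjusted p of 0.00667. When scaled to the 7SL genes, as described at the end, the difference was positive and not called. Its RIP to input ratio differed by -2.83 ± 0.35 (DESeq2, adjusted p = 1.44e-12). SRPRA, the other subunit, did not pass between the RIPs (-0.30 ± 0.40, DESeq2, adjusted p = 0.658). Of the 6 genes listed for the Sec61 channel none passed between the lines in RIP, input or ratio. At an unadjusted p under 0.05 DESeq2 gave 3 of them for the RIPs, 0 for the inputs and 3 for the ratio. Over all tested genes it gave 2091 higher and 2316 lower of 14127 for the RIPs at that level. For the inputs it gave 1329 higher and 1580 lower of 15281, and for the ratio 2294 higher and 2212 lower of 14194. edgeR called none of the 6 genes.

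Of the 10 genes for subunits of RNA polymerase III, none passed between the RIPs or between the inputs, and POLR3D passed for the ratio (1.43 ± 0.33, DESeq2, adjusted p = 0.000402, or 0.00845 with a replicate block and 0.0129 with edgeR). Over all tested genes 8.97% passed for the ratio. With DESeq2, unadjusted p-values under 0.05 were found for 3 of the 10 between the RIPs and for 2 between the inputs. Over all tested genes DESeq2 gave 2091 higher and 2316 lower of 14127 between the RIPs at that level. Between the inputs it gave 1329 higher and 1580 lower of 15281. Of 15 genes for its transcription factors and for proteins that regulate it or bind its RNAs, 2 were higher and 0 lower in eIF4E1b inputs. Over all tested genes 0.89% were higher and 1.44% lower there. MAF1, a repressor of RNA polymerase III, had 191 ± 18.4 CPM in eIF4E1b inputs and 110 ± 5.30 CPM in eIF4E1c inputs (SD, n = 3 each), a log2 difference of 0.75 ± 0.13 (DESeq2, adjusted p = 2.80e-06). The MAF1 call held with any 1 input left out but not in every alternative. Its highest DESeq2 adjusted p among the alternatives was 0.217, and edgeR gave an adjusted p of 0.0123. RO60, which binds Y RNAs and misfolded small RNAs, had 16.6 ± 4.50 CPM in eIF4E1b inputs and 5.73 ± 2.39 CPM in eIF4E1c inputs (SD, n = 3 each; log2 difference 1.46 ± 0.34, DESeq2, adjusted p = 0.000891), a call that held in 2 of 6 fits with 1 input left out.

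Between the RIPs, gtf3c6, a subunit of the factor TFIIIC that binds promoters of RNA polymerase III, was higher in eIF4E1b RIP by 2.15 ± 0.46 (DESeq2, adjusted p = 0.000107, or 0.0110 without eIF4E1b RIP library 2), and RO60 by 2.25 ± 0.47 (DESeq2, adjusted p = 7.14e-05). SSB, the La protein that binds the ends of new RNA polymerase III transcripts, had a lower RIP to input ratio for eIF4E1b (-1.32 ± 0.36, DESeq2, adjusted p = 0.00307), in 3 of 11 fits with 1 library left out. The ratio of gtf3c6 was higher for eIF4E1b (2.22 ± 0.51, DESeq2, adjusted p = 0.000279), from 1.90 to 2.49 with 1 library left out. For the ratio DESeq2 thus called 1 of the 15 genes higher and 1 lower. Over all tested genes 3.73% had a higher and 5.24% a lower ratio. edgeR called none of these 15 genes between the lines in RIP, input or ratio. It gave 6 of them an unadjusted p under 0.05 between the RIPs and 2 between the inputs. Over all tested genes edgeR gave 1896 higher and 2149 lower of 14929 between the RIPs at that level. Between the inputs it gave 1305 higher and 1553 lower of 14539. Over all genes DESeq2 called 486 higher and 637 lower in eIF4E1b RIP and edgeR 2 higher and 2 lower.

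As an RNA without a cap, 7SL can be tried as a reference for scaling, and the pair was used in that way to see how the comparisons of all other genes depend on it. With the summed reads of both genes as size factors, DESeq2 called 340 genes higher and 1 lower in eIF4E1b RIP than in eIF4E1c RIP, with a median log2 difference of 2.96 over 16211 tested genes. With the usual median-of-ratios scaling it called 486 higher and 637 lower, with a median of -0.01. The 7SL size factors rest on 13 reads in eIF4E1b RIP and 27 reads in eIF4E1c RIP. Without eIF4E1c RIP library 1 no gene was called in either direction, with 2857 higher and 8 lower at an unadjusted p under 0.05, and edgeR was not run with this scaling. rn7sl1 alone gave 1390 higher and 2 lower calls, all 81 loci gave 391 higher and 1 lower, and rn7sl1-2 alone could not be used because a library had 0 reads.

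In the inputs, where the pair had 105535 reads in the eIF4E1b and 131265 reads in the eIF4E1c libraries, the same scaling gave 402 genes higher and 40 lower in eIF4E1b, with a median of 0.61 over 14840 tested genes. Median-of-ratios scaling gave 136 higher and 220 lower, with a median of 0.01. rn7sl1 alone gave 65 higher and 13 lower calls, and rn7sl1-2 alone 175 higher and 34 lower. Without eIF4E1b input 2, the input with the most 7SL reads of its line, the counts were 6289 higher and 63 lower. The median of all genes stood above 0 under every 7SL scaling tried. That shift, and the excess of higher calls, follow from the lower 7SL level in eIF4E1b given above, which the scaling turns over. They are therefore not a separate result. The number of calls changed with the copy and with the library left out.

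**Figure D4:**
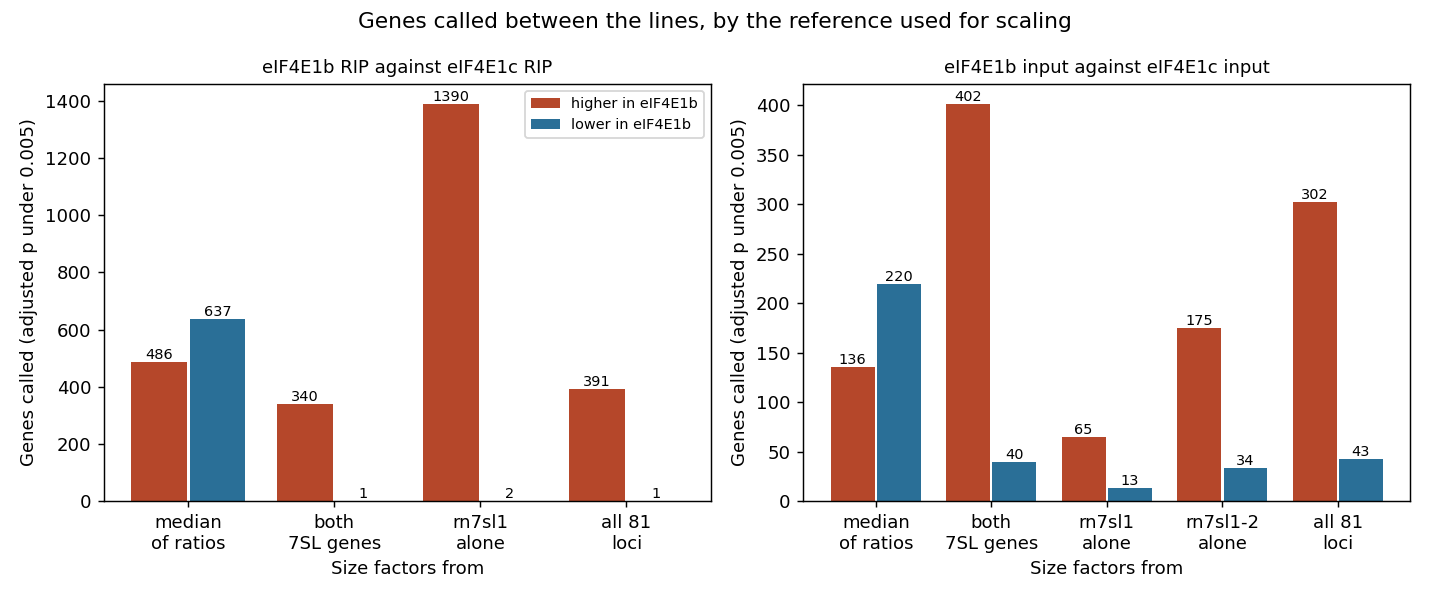
Genes called between the lines by DESeq2 (adjusted p under 0.005) in the RIP libraries (left) and the input libraries (right), by the reads used for the size factors; paired bars give genes higher and genes lower in eIF4E1b. With median-of-ratios scaling, 637 RIP calls were lower, and with either 7SL scaling at most 2 were.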

How the data were processed

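RNA of zebrafish 8-cell embryos was measured in 11 libraries, grouped by their labels into eIF4E1b RIP (n = 3), eIF4E1c RIP (n = 2), eIF4E1b input (n = 3) and eIF4E1c input (n = 3). The values deposited by the authors are raw read counts, whole numbers for each Ensembl gene ID, in 1 file per library. The submitters' processing notes name Trim Galore 0.5.0, Bowtie2 2.3.4.1, featureCounts of Subread 1.6.2, DESeq2 1.18.1, R 3.4.1 and the GRCz11 build. Which annotation was used, whether strand was used and the counting of reads with several matches are not given in the sources used here. Counts of 7SL copies that are alike in sequence depend on that counting, and how alike the copies are was not examined.

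All 32520 genes were kept, and 29201 had a symbol in the name table. rn7sl1 and rn7sl1-2 were taken by gene ID, and the other 7SL loci and the gene lists were matched by symbol. The members and gene lists were chosen with earlier results of these data known. The main test was the Wald test of DESeq2 1.42.0 (R 4.3.3), after the study's methods, with size factors by median of ratios, independent filtering and Benjamini-Hochberg adjusted p under 0.005 over all genes. The ratio test was the interaction of line and kind of library. Shares were compared by exact permutation over libraries. Named genes were both 7SL genes, for lists that bear on 7SL RNA the genes called between lines (at most 4 a comparison) and some of the most counted, the 3 nearest in pattern among genes with a mean normalized count of at least 10, and the neighbours in count. Alternatives were edgeR 4.0.16, total-count and TMM scaling, a filter of at least 10 counts, summed copies, 1 library left out and a replicate block. The DESeq2 and edgeR fits between the lines, in RIP, input and ratio, were tested on simulated data. The fits of RIP against input, the scaling to 7SL and the other alternatives were not.

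Same-numbered RIP and input libraries deviated together in the eIF4E1b line (r of 0.46, 0.29 and 0.49 over 11406 genes), while in the eIF4E1c line r was 0.21 and 0.07. The file of the eIF4E1c RIP library labelled replicate 2 carries the number 3, its r with input 3 was 0.21, and which number is right was not given, so replicate blocks, which use the labels' number, are uncertain. Across lines r of same-numbered libraries lay between -0.07 and 0.11. Sequences, positions and lengths of the genes were not used here.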

Additional observations from a re-analysis of the deposited data

How the results depend on the processing

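In the comparisons between lines neither 7SL gene passed the threshold in DESeq2 or edgeR under any alternative except 1, and the sign of each difference held in all of them. The exception was rn7sl1-2 without eIF4E1b input 2 (-0.76), named in the report. edgeR and the filter of at least 10 counts dropped both genes from the RIP comparison and gave no value there. Replacing the genes by all 81 loci, an alternative added after the data were seen, gave -3.11 between the RIPs, which passed with DESeq2 but not with edgeR. With 1 library left out the sum ranged from -3.96 to -0.91 between the RIPs and passed in 1 of 5 fits, without eIF4E1c RIP library 2.

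With 1 library left out, rn7sl1 ranged from -3.09 to -1.31 in RIP, from -1.05 to -0.36 in input and from -2.24 to -0.46 in the ratio. rn7sl1-2 ranged from -3.37 to -0.93, from -0.76 to -0.28 and from -2.66 to -0.44 in those comparisons. With a replicate block rn7sl1 was at -2.63 in RIP, -0.73 in input and -1.40 in the ratio, and rn7sl1-2 at -3.36, -0.51 and -1.71. The block changed no call of either gene. For eIF4E1b RIP against input, the value was -12.67 with both genes summed and -13.04 with all 81 loci summed, beside -11.34 for rn7sl1 and -13.45 for rn7sl1-2. rn7sl1-2 held 83043 of the 105535 reads of the pair in the eIF4E1b inputs.

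The share of the pair's reads held by rn7sl1 changed the sign of its difference between the lines in RIP without eIF4E1b RIP library 1 (-5.04 percentage points, in a range up to 23.5) and in input without eIF4E1c input 1 (2.55 percentage points, in a range down to -7.43).

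Scaling to 7SL depended on the setting throughout. Between the RIPs, rn7sl1 alone gave 1390 higher and 2 lower calls, a replicate block 28 and 0, and 1 library left out between 0 and 2231 higher and 0 and 1 lower. Between the inputs, rn7sl1 alone gave 65 higher and 13 lower calls, rn7sl1-2 alone 175 higher, a replicate block 165 higher, and 1 library left out between 79 and 6289 higher and 23 and 63 lower. The cause was not tested.

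Depth limits the RIP values. Both genes together had 1 to 17 reads in a RIP library, so that differences between RIPs were not detectable at this depth unless large. Read counts of single copies depend on how reads with several matches were assigned.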
